A study of Xenopus laevis with 6 samples.

Results

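The libraries of *kdm3a* morphants were compared with those of control embryos of the African clawed frog *Xenopus laevis*, over all 35773 gene models of the count table. A morphant is an embryo injected with a morpholino oligonucleotide (MO), an antisense oligonucleotide that pairs with a chosen mRNA. Libraries were chosen by their labels, and 4 of the 6 libraries of the series entered the comparison, namely control 1, control 2, kdm3a MO 3 and kdm3a MO 4. Each held poly(A) RNA of whole embryos at NF stage 32, a tailbud stage, and according to the labels the *kdm3a* MO was injected at the 2-cell stage. The labels do not say whether control embryos were injected, what the MO blocks, its dose, or how many embryos were pooled. The design note counts 2 biological replicates per group without naming their parents, so the p-values measure the spread between these libraries only. The date in the sample titles is later for the *kdm3a* MO libraries than for the controls, so in every comparison with the controls the MO and the label date cannot be told apart. The other 2 libraries, kdm5c MO 1 and kdm5c MO 2, came from embryos of the same stage injected with a MO against another histone demethylase gene, carry the date of the controls, and are given beside the main values. The title of the series places the roles of Kdm3a in craniofacial and neural development, and the study's paper describes the *kdm5c* MO embryos only.

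Kdm3a (also called Jmjd1a) is a demethylase that removes methyl groups from lysine 9 of histone H3, a mark of silent chromatin. In mammals it is known for its roles in spermatogenesis, metabolism and the response to low oxygen, and its relatives are Kdm3b and Jmjd1c. The *X. laevis* genome is allotetraploid, so most genes exist as an L and an S copy, which the count table keeps apart. The neural crest is a migratory cell population that arises beside the neural plate and forms most of the craniofacial cartilage.

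Total counts were 14603570 and 14718840 in the controls and 20217436 and 13322018 in kdm3a MO 3 and kdm3a MO 4. Levels are given as CPM, the counts in every 1000000 counts of a library, after TMM scaling (a trimmed mean of log ratios) with factors from 0.949 to 1.05. Most low counts were even, as they are where both mates of a pair count, so the floor was set at 6 counts, or 3 read pairs. In a library it corresponded to 0.297 to 0.450 CPM, and it covers counting error only. Control 1 and kdm3a MO 3 stood apart from the others. Over the tested genes the Pearson correlation of log2 values was highest between control 2 and kdm3a MO 4 (0.939) and lowest between control 1 and kdm3a MO 3 (0.766), whereas it was 0.842 between the controls and 0.873 between the *kdm3a* MO libraries. The controls differed more than 4-fold in 2852 of 26491 genes (10.8%) and the *kdm3a* MO libraries in 1906 (7.19%). Markers of the tissues of a tailbud embryo were present in all 4 libraries, with counts in every library for 112 of 124 skeletal muscle copies, 142 of 167 neuronal copies and 68 of 77 copies of epidermal keratin and goblet cell genes, but for only 15 of 32 lens copies.

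The targeted gene was examined first. *kdm3a.L* had 1820 and 1338 counts in the controls against 8588 and 5529 in the *kdm3a* MO libraries, or 132 and 87.0 CPM against 435 and 405 CPM. Both *kdm3a* MO libraries thus lay more than 2-fold above both controls. The log2 fold change was 1.94 (standard error (SE) 0.67), which did not pass after adjustment over all genes (unadjusted p = 0.00553, and FDR = 0.605 as the Benjamini-Hochberg adjusted p of edgeR's exact test, as is every FDR given here unless another test is named). For *kdm3a.S* the counts were 3909 and 2501 in the controls and 9077 and 3534 in the *kdm3a* MO libraries, and the groups overlapped in CPM (log2 fold change 0.69, SE 0.69). In kdm5c MO 1 and kdm5c MO 2, *kdm3a.L* was at 61.6 and 68.7 CPM with the scaling of all 6 libraries, below every control and *kdm3a* MO value. Against the *kdm5c* MO libraries its log2 fold change in the *kdm3a* MO libraries was 2.58 (SE 0.59, edgeR FDR = 0.0537). An MO can block translation without lowering its target mRNA, and what this MO blocks is not stated, so the counts are no check of the labels.

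Of the relatives of *kdm3a*, *kdm3b* and *jmjd1c* differed less between the groups than *kdm3a.L*. *kdm3b.L* was at 45.1 and 56.4 CPM in the controls and 60.1 and 70.9 CPM in the *kdm3a* MO libraries (log2 fold change 0.37, SE 0.64), and *kdm3b.S* at 35.1 and 31.4 against 28.3 and 32.5 CPM (-0.13, SE 0.65). *jmjd1c.S* was at 53.9 and 42.9 against 79.0 and 69.3 CPM (0.62, SE 0.65) and *jmjd1c.L* at 56.7 and 37.7 against 53.9 and 70.6 CPM (0.40, SE 0.65). The *kdm3b.L* and *jmjd1c.S* groups did not overlap, while those of *kdm3b.S* and *jmjd1c.L* did. The model *kdm3a-like.L* was low throughout, with 10 and 4 counts in the controls and 24 and 57 in the *kdm3a* MO libraries (log2 fold change 2.44, SE 1.25), without overlap. The edgeR FDR was 1 for all 5 of these models.

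Gene models that passed the limits were nearly all higher in the *kdm3a* MO libraries. They included chemokines and cytokines (*cxcl8*, *csf3*, *il1b*), feedback regulators of cytokine signalling (*socs3*), AP-1 transcription factors (*jun*, *junb*) and matrix metalloproteases (*mmp1*, *mmp8*). With limits of FDR 0.01 and 4-fold in edgeR's exact test, 47 models passed (0.177% of 26491 tested), of which 43 rose (0.162%) and 4 fell (0.0151%). In all 47 both *kdm3a* MO libraries lay on the same side of both controls by more than 2-fold, a pattern that occurred upward in 322 (1.22%) and downward in 174 (0.657%) of all genes tested. Of the 43 that rose, 35 carried a symbol and 8 an identifier only. Among the 36 with any control count the smallest log2 fold change was 3.14 and the greatest 10.4, and in the other 7 both controls were at 0. A looser limit of FDR below 0.05 and 2-fold was passed by 58 genes upward (0.219%) and 8 downward (0.0302%). Under edgeR's quasi-likelihood test 0 genes passed, with 715 at an unadjusted p below 0.05 and a lowest FDR of 0.9998, whereas DESeq2's Wald test called 83, including 44 of the 47. Without kdm3a MO 3 only 5 genes passed, 4 of them among the 47 (*cxcl8.S*, *tnfaip2.L* and the models *loc100490918-like.L* and *loc100490020.L*). Without control 1 the number was 25 and without control 2 it was 355, of which 17 and 28 were among the 47.

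**Figure D1:**
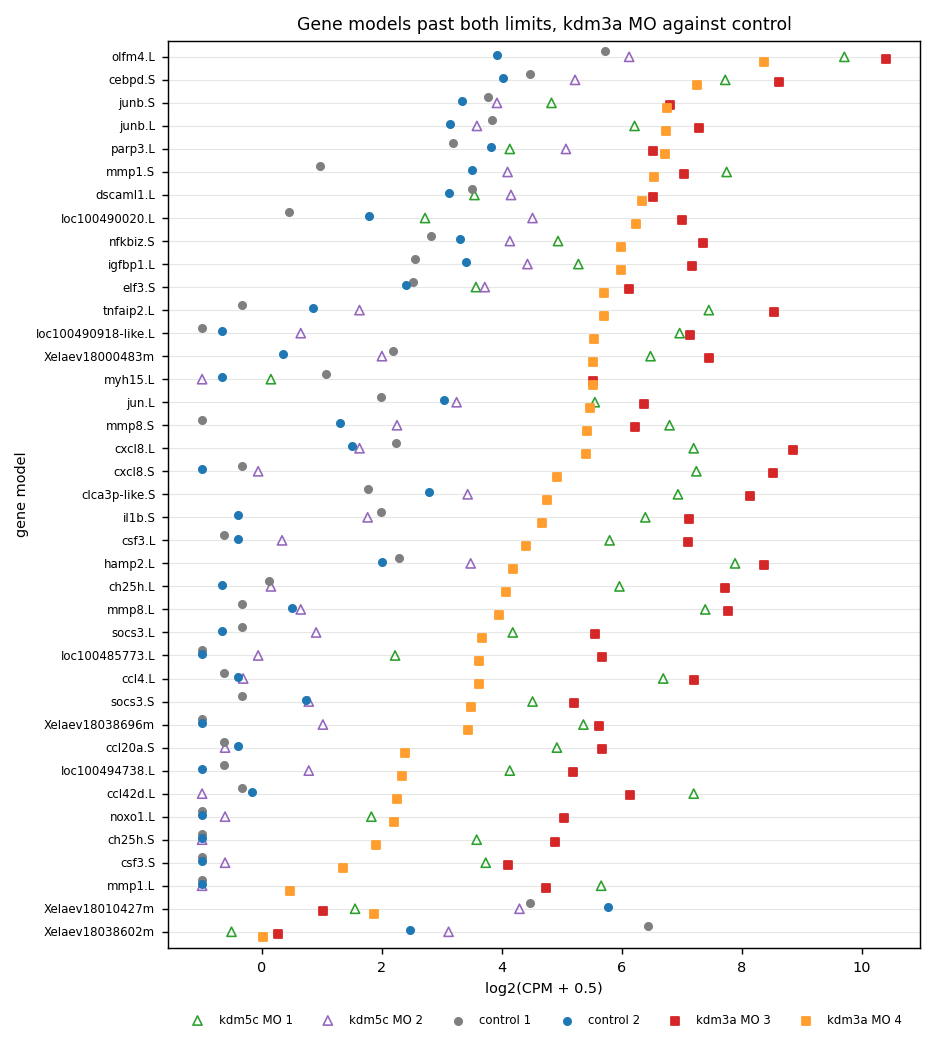
Level of gene models that passed both limits, as log2(CPM + 0.5), in control 1 and control 2 (circles), kdm3a MO 3 and kdm3a MO 4 (squares) and, with the scaling of all 6 libraries, kdm5c MO 1 and kdm5c MO 2 (open triangles). All models with a symbol and 4 with an identifier only are drawn, ordered by the level in kdm3a MO 4, with those that fell at the bottom. Squares lie to the right of both circles in each model that rose, and kdm3a MO 3 lies farthest right of the 4 libraries in nearly all of them.

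Chemokines and cytokines, the secreted signals that recruit and activate leukocytes, made up 8 of the 43 models that rose. These 8 were counted by symbol among the models called, and the share of such symbols over all genes tested was not counted. *cxcl8.L*, a chemokine that attracts neutrophils, was at 4.19 and 2.34 CPM in the controls and 461 and 41.6 CPM in the *kdm3a* MO libraries (log2 fold change 6.26, SE 0.92, edgeR FDR = 0.000141). Its other copy *cxcl8.S* had 4 and 0 counts in the controls against 7212 and 406 (log2 fold change 10.4, SE 1.21, edgeR FDR = 1.57e-07). The copies were higher in kdm3a MO 3 than in kdm3a MO 4 by 3.45 and 3.60 on the log2 scale, and kdm3a MO 4 itself lay far above the controls. *csf3.L* encodes granulocyte colony-stimulating factor and had 2 and 4 counts in the controls and 2702 and 281 in the *kdm3a* MO libraries (8.54, SE 1.01, edgeR FDR = 1.87e-08). *csf3.S* had 0 counts in either control and 328 and 28 in the *kdm3a* MO libraries, at least 51.9-fold higher when 6 counts over the group are taken as the floor.

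The interleukin *il1b.S*, an early signal of inflammation, had 48 and 4 counts in the controls and 2738 and 340 in the *kdm3a* MO libraries (5.45, SE 0.98, edgeR FDR = 0.00416). The chemokines *ccl4.L*, *ccl20a.S* and *ccl42d.L* had at most 6 counts in a control and 2887 and 161, 994 and 64, and 1369 and 58 counts in kdm3a MO 3 and kdm3a MO 4. For these 3 the log2 fold changes were 8.54, 7.02 and 6.72. *lif.S*, a cytokine of the interleukin-6 family, fell just outside the FDR limit with 2 and 0 counts against 159 and 80 (edgeR FDR = 0.0104). This was a ratio of 104 with a counting interval of 18.5 to 4178 over read pairs (95%, exact). *lif.L* had 0 counts in either control and 75 and 28 in the *kdm3a* MO libraries, at least 15.01-fold higher.

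Over the list of cytokines and chemokines, 33 of 57 copies passed the filter on low counts. Of these 33 copies, 6 were called higher and 0 lower, and *ccl20a.S* and *ccl42d.L* stand outside the list. Both *kdm3a* MO libraries lay above both controls in 15 (45.5%, against 15.9% of all genes tested) and below them in 4 (against 16.1%). The list median of the log2 fold change was 0.65, against -0.02 over all genes tested. A copy can pass the filter through a single group. Copies such as *csf3.S*, with 0 counts in either control, entered only through the *kdm3a* MO libraries. That favours values above the controls, so these counts and the median are a description. The summed level of the list was 212 CPM in each control and 1514 and 303 CPM in the *kdm3a* MO libraries, so much of the sum came from kdm3a MO 3. The list median was 0.56 without kdm3a MO 3, 1.13 without control 1, 1.41 without kdm3a MO 4 and 1.78 without control 2. Of 66 tested cytokine receptor copies 0 were called, and 26 (39.4%) had both *kdm3a* MO libraries above both controls. The receptor with the lowest p was *tnfrsf12a*, which binds the cytokine Tweak, with 4 and 7 counts in the controls and 633 and 38 in the *kdm3a* MO libraries (5.52, SE 1.13, edgeR FDR = 0.0223).

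Of JAK-STAT signalling and feedback genes, both copies of 1 gene passed. *socs3.L* and *socs3.S* encode an inhibitor of JAK-STAT signalling that cytokines themselves induce. *socs3.L* was at 0.289 and 0.130 CPM in the controls and 46.6 and 12.15 CPM in the *kdm3a* MO libraries (7.09, SE 1.03, edgeR FDR = 8.99e-06), and *socs3.S* at 0.289 and 1.17 against 36.2 and 10.6 CPM (4.98, SE 0.96, edgeR FDR = 0.00588). Both copies were more than 4-fold above the higher control in each *kdm3a* MO library. *cish.S*, a related inhibitor, was at 0.723 and 1.17 against 33.9 and 3.73 CPM and did not pass (edgeR FDR = 0.103). Over the JAK-STAT list, 2 of 47 tested copies were called, against 0.177% of all genes tested. *socs3.L*, with 4 and 2 counts in the controls, passed the filter on low counts only through the *kdm3a* MO libraries. That favours values above the controls, so the counts of this list are a description. Both *kdm3a* MO libraries lay above both controls in 17 (36.2%, against 15.9%) and below them in 4 (8.51%, against 16.1%). The median log2 fold change was 0.27, and 0.86 without control 2.

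Among NF-kB genes, *tnfaip2.L*, a gene induced by tumour necrosis factor, was at 0.289 and 1.30 CPM in the controls and 371 and 51.2 CPM in the *kdm3a* MO libraries (8.03, SE 0.95, edgeR FDR = 6.38e-07). *nfkbiz.S*, an atypical I-kappa-B protein that controls a subset of NF-kB targets, was at 6.51 and 9.36 against 163 and 62.6 CPM (3.83, SE 0.71, edgeR FDR = 0.00180). The NF-kB inhibitors *tnip1.L* (1.59 and 6.76 against 96.5 and 25.1 CPM) and *tnfaip3.S* (2.31 and 0.780 against 23.7 and 11.3 CPM) were past 4-fold but not past the FDR limit, with edgeR FDR values of 0.0232 and 0.163. In each of these 4 genes both *kdm3a* MO libraries lay above both controls and kdm3a MO 3 was the higher. Over the list, 2 of 71 tested copies were called, against 0.177% of all genes tested. *tnfaip2.L*, with 4 and 20 counts in the controls, could not pass the filter on low counts through the controls alone. That favours values above the controls, so the counts of this list are a description. Both *kdm3a* MO libraries lay above both controls in 42 (59.2%, against 15.9%) and below them in 1 (1.41%, against 16.1%). The median was 0.98, and 0.51 without kdm3a MO 3.

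Immediate early and AP-1 genes encode transcription factors that respond within minutes to growth factors, stress or wounding. *junb.S* was at 13.1 and 9.62 CPM in the controls and 111 and 107 CPM in the *kdm3a* MO libraries (3.26, SE 0.65, edgeR FDR = 0.00363). *junb.L* was at 13.8 and 8.26 against 155 and 106 CPM (3.56, SE 0.67) and *jun.L* at 3.47 and 7.67 against 81.7 and 43.5 CPM (3.49, SE 0.71), with edgeR FDR values of 0.00188 and 0.00588. Unlike the chemokines, these 3 copies differed by less than 2-fold between the *kdm3a* MO libraries. *cebpd.S*, a factor of the acute phase response, was at 21.7 and 15.7 against 392 and 152 CPM (3.86, SE 0.71, edgeR FDR = 0.00180), and its other copy *cebpd.L* at 30.9 and 55.6 against 487 and 181 CPM did not pass (edgeR FDR = 0.0720). *fos.S*, the partner of Jun in AP-1, was at 1.88 and 1.82 against 22.02 and 17.9 CPM (3.42, SE 0.82, edgeR FDR = 0.0578). *egr1.S*, a zinc finger immediate early factor, was at 0.723 and 0.910 against 19.1 and 9.66 CPM (4.12, SE 0.94, edgeR FDR = 0.0405). Both *fos.S* and *egr1.S* were named after their values were seen. *btg1.L*, the copy of the list with the highest level, was at 409 and 127 against 315 and 155 CPM (-0.19, SE 0.76). Its groups overlapped, as did those of *btg1.S* (-0.22, SE 0.77). Over the list, 4 of 80 tested copies were called, against 0.177% of all genes tested, and the median was 0.94. Both *kdm3a* MO libraries lay above both controls in 46 (57.5%, against 15.9%) and below them in 3 (3.75%, against 16.1%). Of the 80 copies 22 had an unadjusted p below 0.05 upward by edgeR's exact test (27.5%, against 1.89% of all genes tested). Downward there were 2 (2.50%, against 1.31%).

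Matrix metalloproteases degrade extracellular matrix. *mmp8.L*, known as neutrophil collagenase in mammals, was at 0.289 and 0.910 CPM in the controls and 217 and 15.01 CPM in the *kdm3a* MO libraries (7.57, SE 1.02, edgeR FDR = 2.77e-05). *mmp8.S* was at 0 and 1.95 against 73.9 and 42.4 CPM (5.88, SE 1.01) and *mmp1.S*, an interstitial collagenase, at 1.45 and 10.8 against 131 and 91.5 CPM (4.18, SE 0.82), with edgeR FDR values of 0.00196 and 0.00697. *mmp1.L* had 0 counts in either control and 516 and 12 in the *kdm3a* MO libraries, at least 76.9-fold higher. All 4 copies rose, and in the RefSeq annotation of the *X. laevis* v10.1 assembly *mmp8* and *mmp1* are near neighbours, with 4 protein-coding genes between the L copies and 2 between the S copies. Of 44 tested copies of the list of matrix proteases and inhibitors these 4 were the ones called, against 0.177% of all genes tested. *mmp1.L*, with 0 counts in either control, passed the filter on low counts only through the *kdm3a* MO libraries. That favours values above the controls, so the counts of this list are a description. Both *kdm3a* MO libraries lay above both controls in 16 (36.4%, against 15.9%) and below them in 2 (4.55%, against 16.1%). The list median was 0.45, which was 0.06 without control 1 and 1.92 without control 2.

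A further group of models that rose stood on none of the lists, 25 of the 43 in all. *ch25h.L* encodes cholesterol 25-hydroxylase, an interferon-inducible enzyme in mammals, and was at 0.579 and 0.130 CPM in the controls and 210 and 16.3 CPM in the *kdm3a* MO libraries (8.30, SE 1.05, edgeR FDR = 4.02e-06). Its other copy *ch25h.S* had 0 counts in either control and 573 and 44 in the *kdm3a* MO libraries, at least 89.9-fold higher. *noxo1.L*, an organiser of NADPH oxidase, likewise had 0 counts in either control and 635 and 56, at least 101-fold higher. *hamp2.L*, a hepcidin, which in mammals limits iron export, was at 4.34 and 3.51 against 329 and 17.7 CPM (5.46, SE 0.97, edgeR FDR = 0.00357). These genes shared the wide gap between the *kdm3a* MO libraries that the chemokines had.

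*olfm4.L*, an olfactomedin, had the highest level of the models that rose, with 52.2 and 14.6 CPM in the controls and 1349 and 331 CPM in the *kdm3a* MO libraries (4.65, SE 0.84, edgeR FDR = 0.00219). *igfbp1.L*, an insulin-like growth factor binding protein that rises in fasting and low oxygen in mammals, was at 5.35 and 10.01 against 143 and 62.6 CPM (3.74, SE 0.71, edgeR FDR = 0.00219). The epithelial ETS factor *elf3.S* was at 5.21 and 4.75 against 68.6 and 51.3 CPM (3.59, SE 0.66, edgeR FDR = 0.00136), and its other copy *elf3.L* at 4.99 and 7.54 against 35.9 and 40.6 CPM did not pass (edgeR FDR = 0.124). Groups did not overlap in any of these genes.

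Models of another kind were nearly equal in the *kdm3a* MO libraries. *myh15.L*, a myosin heavy chain, was at 1.59 and 0.130 CPM in the controls and 45.1 and 45.03 CPM in the *kdm3a* MO libraries (5.71, SE 0.87, edgeR FDR = 0.000115). *parp3.L*, a poly(ADP-ribose) polymerase of DNA break repair, was at 8.53 and 13.7 against 91.2 and 105 CPM (3.14, SE 0.66, edgeR FDR = 0.00778) and was the 1 model of the 43 that was higher in kdm3a MO 4 than in kdm3a MO 3. *dscaml1.L*, a neuronal cell adhesion molecule, was at 10.8 and 8.19 against 90.9 and 80.4 CPM (3.17, SE 0.65, edgeR FDR = 0.00500). Its other copy *dscaml1.S* was near the floor in all 4 libraries, with 6 and 24 counts against 20 and 4. The gene behind *loc100490020.L* is not named in the files used here, and its level was 0.868 and 2.93 against 127 and 74.4 CPM (5.72, SE 0.75, edgeR FDR = 8.20e-07).

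L and S copies were measured in the same libraries, so they are no independent check of each other. Of the 43 models that rose, 26 have another copy in the count table, of which 23 were tested. Of these, 14 were called. The 14 are the L and S copies of 7 genes, namely *csf3*, *cxcl8*, *socs3*, *junb*, *mmp1*, *mmp8* and *ch25h*. They are themselves among the 43, so they lay above both controls by that choice. With them, 21 of the 23 had both *kdm3a* MO libraries above both controls. That count cannot be set against the 15.9% of all genes tested. The exceptions were *dscaml1.S* and *clca3p-like.L*. *clca3p-like.L*, a calcium-activated chloride channel regulator, was at 159 and 38.3 CPM in the controls and 123 and 99.2 CPM in the *kdm3a* MO libraries, with overlapping groups, whereas *clca3p-like.S* was at 2.89 and 6.37 against 280 and 26.4 CPM (5.05, SE 0.91, edgeR FDR = 0.00317). Copies that are highly similar can share reads, and how such reads were counted is not stated, so values of single copies carry that uncertainty.

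Models known by an identifier only are not paired with gene names in the files. Xelaev18038696m rose from 0 counts in either control to 962 and 141, at least 161-fold, and Xelaev18000483m from 4.05 and 0.780 CPM to 175 and 45.4 CPM (5.51, SE 0.86, edgeR FDR = 0.000214). All 4 models that fell belong to this kind. Xelaev18010427m fell from 21.7 and 54.2 CPM to 1.52 and 3.15 CPM (-4.03, SE 0.78, edgeR FDR = 0.00357). Xelaev18038602m fell from 86.2 and 5.01 CPM to 0.709 and 0.513 CPM (-6.20, SE 1.03, edgeR FDR = 0.00136), and here control 1 was far above control 2. The same held for Xelaev18024762m (250 and 15.6 against 2.94 and 5.27 CPM) and Xelaev18029200m (17.8 and 0.910 against 0 and 0 CPM). Of named genes, *nos1.L*, the neuronal nitric oxide synthase, came nearest to the limits downward, with 681 and 45 counts in the controls and 12 and 8 in the *kdm3a* MO libraries (-5.43, SE 1.08, edgeR FDR = 0.0158). There too control 1 was far above control 2. *angpt4.S*, an angiopoietin, had 1509 counts in control 1 alone and 16 against 8 and 17 in the other 3 libraries (edgeR FDR = 0.0478), so its value rests on control 1.

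The size of the response differed between the *kdm3a* MO libraries. kdm3a MO 3 was above kdm3a MO 4 in 42 of the 43 models that rose, by more than 4-fold in 24, with a median log2 difference of 2.18 against 0.04 over all genes tested. In 10 of the 43 the difference was below 2-fold, namely *dscaml1.L*, *elf3.S*, *jun.L*, *junb.L*, *junb.S*, *loc100490020.L*, *mmp1.S*, *mmp8.S*, *myh15.L* and *parp3.L*. The most similar libraries of the groups, control 2 and kdm3a MO 4, differed more than 4-fold in 41 of the 43, among 170 genes in all that were so much higher and 326 so much lower, but both libraries took part in choosing the 43. Of the 4 models that fell, 2 were more than 4-fold lower in that pair and all 4 more than 2-fold lower.

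**Figure D2:**
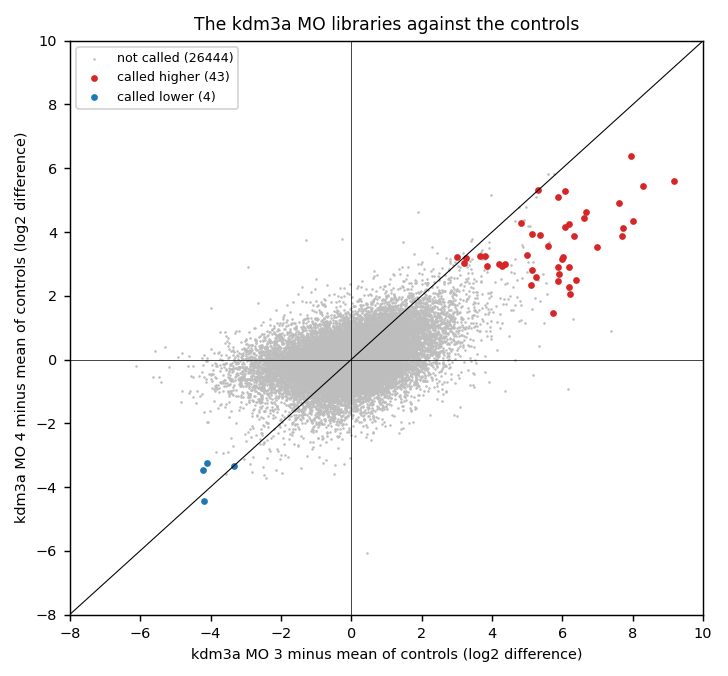
Level of each of 26491 tested gene models in kdm3a MO 3 (horizontal) and kdm3a MO 4 (vertical), each as log2(CPM + 0.5) minus the mean of the controls on that scale. Models that passed the limits are in red (43 higher) or blue (4 lower), the diagonal marks equal values, and 42 of the 43 red points lie below it.

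The *kdm5c* MO libraries, which share the controls and so are given side by side only, were unlike each other for these models, and in their own comparison with the controls 2 of 26152 genes (0.00765%) passed both limits by edgeR's exact test. kdm5c MO 1 was more than 4-fold above both controls in 36 of the 43 models that rose, and kdm5c MO 2 in 2. The share over all genes tested was not counted for this or for the other comparisons of single libraries in this paragraph. kdm5c MO 1 also stood apart as a library, with a TMM factor of 0.710 against 1.02 to 1.16 in the others and the fewest models with a count (28501). CPM values of the *kdm5c* MO libraries carry the scaling of all 6 libraries, and those of the *kdm3a* MO libraries the scaling of 4. Counts of models between libraries used the scaling of all 6. kdm5c MO 1 was also above kdm3a MO 4 in 31 of the 43, as for *cxcl8.L* (146 against 41.6 CPM), *mmp1.S* (214 against 91.5 CPM) and *ccl42d.L* (146 against 4.25 CPM). In contrast, kdm5c MO 2 was below kdm3a MO 4 in all 43, and it held 2.58 CPM of *cxcl8.L*. High values in kdm3a MO 4 took part in choosing the 43. That by itself favours lower values in other libraries, so this count and the next are descriptions. Of the 10 models that were nearly equal in the *kdm3a* MO libraries, 7 were lower in kdm5c MO 1 than in kdm3a MO 4, such as *dscaml1.L* at 11.1 CPM, *parp3.L* at 17.0 CPM and *junb.S* at 27.8 CPM. The models that fell were also low in kdm5c MO 1, where Xelaev18038602m was at 0.202 CPM, against 8.12 CPM in kdm5c MO 2.

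The *kdm3a* MO and *kdm5c* MO libraries were also compared directly, without the controls. Their label dates differ, so here too the MO and the date cannot be told apart. Of the 43 models that rose, 38 had a log2 fold change above 0 in *kdm3a* MO against *kdm5c* MO libraries, with a median of 1.16, and 11 had an unadjusted p below 0.05 in either direction, but only 1 was called. The 43 were chosen for high values in the same *kdm3a* MO libraries, which by itself favours values above 0, so these counts are a description. The gene called was *myh15.L*, at 0.607 and 0 CPM in the *kdm5c* MO libraries (log2 fold change 7.18, SE 0.90, edgeR FDR = 6.66e-09). It was the 1 gene of 26092 tested that was called higher in this contrast (0.00383%), and 12 were called lower (0.0460%). *dscaml1.L* had a log2 fold change of 2.48 (SE 0.59, edgeR FDR = 0.0834) and *junb.S* one of 2.25 (SE 0.61, edgeR FDR = 0.250). For *csf3.L* it was 1.40 (SE 1.18, edgeR FDR = 1), an estimate whose SE is nearly as large as itself.

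Values of 8 copies of genes that are known to be induced by DNA damage are given next. They were chosen for a low p or a high level or after their values were seen, and the list behind them is not reported here, so they do not stand for such genes as a group. *sesn1.S*, a sestrin that acts against oxidative stress, was at 7.67 and 9.49 CPM in the controls and 88.9 and 52.1 CPM in the *kdm3a* MO libraries (3.04, SE 0.66, edgeR FDR = 0.0123). *eda2r.L*, a receptor of the tumour necrosis factor family, was at 18.5 and 4.81 against 108 and 138 CPM (3.40, SE 0.74, edgeR FDR = 0.0182). These 2 passed the looser limit of FDR below 0.05 and 2-fold and missed the stricter one. In *eda2r.L* kdm3a MO 4 was the higher, and the groups were far apart in both genes.

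The other 6 copies did not pass either limit. *cdkn1a.L*, the cell cycle inhibitor p21, was at 28.6 and 20.22 against 104 and 130 CPM (2.26, SE 0.65, unadjusted p = 0.00109 by edgeR). *ccng1.L*, cyclin G1, had the highest level of these genes at 196 and 279 against 1041 and 1225 CPM (2.25, SE 0.67), and its other copy *ccng1.S* was at 61.8 and 48.7 against 312 and 204 CPM (2.22, SE 0.67). The ubiquitin ligase gene *mdm2.L* was at 43.8 and 38.1 against 185 and 129 CPM (1.94, SE 0.66). The death receptor *fas.L* was at 1.45 and 6.05 against 24.7 and 29.7 CPM (2.86, SE 0.84) and the kinase *plk2.S* at 8.46 and 21.6 against 79.5 and 60.7 CPM (2.22, SE 0.69). In all 6 copies both *kdm3a* MO libraries lay more than 2-fold above both controls, and their edgeR FDR ran from 0.225 (*cdkn1a.L*) to 0.581 (*mdm2.L*). Outside this set of copies, *cdkn1a.S* was at 23.4 and 9.82 against 46.7 and 43.1 CPM (1.44, SE 0.69). It was above both controls in both *kdm3a* MO libraries, but not by more than 2-fold. Among caspases and BCL2 family genes, which carry out and gate cell death, 0 of 49 copies were called, with a median of 0.41. Both *kdm3a* MO libraries lay above both controls in 14 (28.6%, against 15.9% of all genes tested). Below them they lay in 3 (6.12%, against 16.1%). At an unadjusted p below 0.05 by edgeR's exact test, 2 of these copies were higher (4.08%, against 1.89%) and 2 lower (4.08%, against 1.31%). Among the lower was *bax.S*, with both *kdm3a* MO libraries below both controls (-1.86, SE 0.87, unadjusted p = 0.0433 by edgeR). The 8 copies above, which all rose, thus leave out a cell death gene that went the other way.

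**Figure D3:**
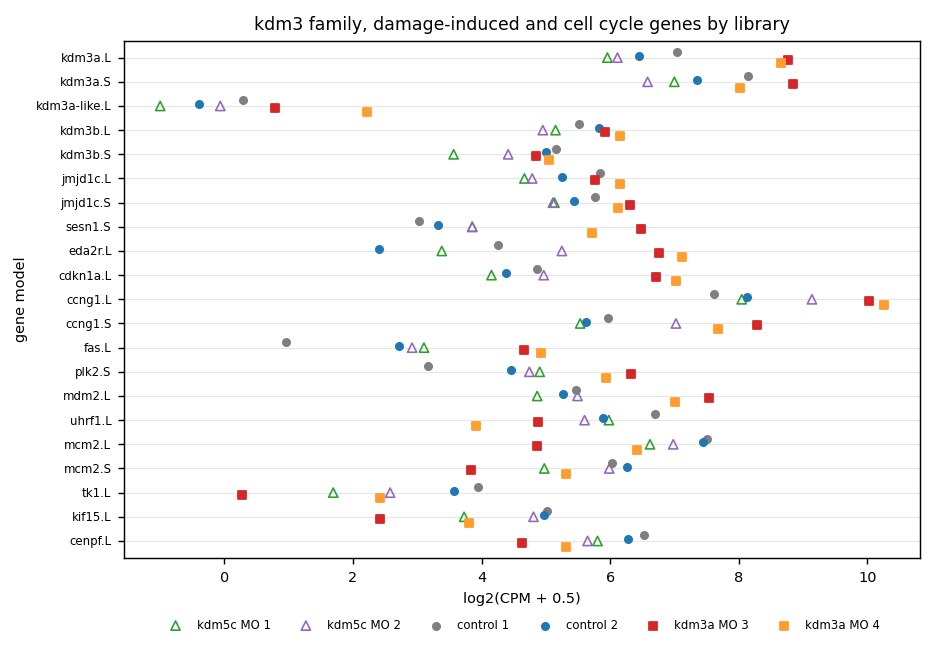
Level of *kdm3* family genes, genes induced by DNA damage, DNA replication genes and mitosis genes (rows from top to bottom) as log2(CPM + 0.5), with controls as circles, *kdm3a* MO libraries as squares and, with the scaling of all 6 libraries, *kdm5c* MO libraries as open triangles. *kdm3a.L* lies at 435 and 405 CPM in the *kdm3a* MO libraries, the 8 damage-induced copies lie to the right of both controls there, and the replication and mitosis genes lie to the left.

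Most tested copies of DNA replication and mitosis genes had lower values in both *kdm3a* MO libraries than in both controls, and none passed the limits. *uhrf1.L*, which maintains DNA methylation at replication forks, was at 103 and 58.6 CPM in the controls and 28.9 and 14.5 CPM in the *kdm3a* MO libraries (-1.90, SE 0.69, unadjusted p = 0.00828, edgeR FDR = 0.756). *mcm2.L*, a subunit of the replicative helicase, was at 182 and 173 against 28.5 and 85.1 CPM (-1.65, SE 0.72), and *mcm2.S* at 64.9 and 76.1 against 13.8 and 39.1 CPM (-1.42, SE 0.70). The thymidine kinase *tk1.L* was at 14.8 and 11.4 against 0.709 and 4.83 CPM (-2.25, SE 0.999). In the *mcm2* copies and *tk1.L* kdm3a MO 3 was the lower *kdm3a* MO library. Over the replication list 53 of 84 tested copies (63.1%, against 16.1% of all genes tested) had both *kdm3a* MO libraries below both controls. This was the highest share below of all lists. Both lay above in 3 (3.57%, against 15.9%), and the list had a median of -0.72. Its summed level was 4332 and 3945 CPM in the controls and 2086 and 2780 CPM in the *kdm3a* MO libraries. At an unadjusted p below 0.05 by edgeR's exact test there were 3 copies downward (3.57%, against 1.31% of all genes tested) and 0 upward (against 1.89%). The list's median against the *kdm5c* MO libraries was -0.72. There 14 of 83 copies had an unadjusted p below 0.05 downward (16.9%, against 3.10% of all genes tested) and 0 upward (against 1.33%). This was not particular to replication genes. Downward and upward in that contrast were 30 and 0 of 104 cytosolic ribosomal protein copies and 25 and 1 of 117 respiratory chain copies. For splicing factors the numbers were 23 and 0 of 130.

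Of the mitosis list, 65 of 117 tested copies (55.6%, against 16.1% of all genes tested) were below both controls in both *kdm3a* MO libraries. Above them were 6 (5.13%, against 15.9%), and the list had a median of -0.57. The median was -0.90 without kdm3a MO 4, -0.37 without control 1 and -0.35 without kdm3a MO 3. The kinesin *kif15.L* was at 31.9 and 31.0 against 4.86 and 13.5 CPM (-1.78, SE 0.74) and the kinetochore protein *cenpf.L* at 91.7 and 76.9 against 24.2 and 39.1 CPM (-1.41, SE 0.66). *ckap2.S*, a cytoskeleton-associated protein, went the other way, at 5.42 and 4.81 against 34.6 and 24.3 CPM (2.52, SE 0.73, edgeR FDR = 0.242). In the whole embryo, fewer cells of a type and less RNA per cell cannot be told apart.

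Splicing factors had a median of -0.55. Of 129 tested copies 46 (35.7%, against 16.1% of all genes tested) were below both controls in both *kdm3a* MO libraries and 0 above (against 15.9%). *prpf19.S*, a subunit of the spliceosome, was at 131 and 115 CPM in the controls and 32.3 and 25.6 CPM in the *kdm3a* MO libraries (-2.09, SE 0.65, edgeR FDR = 0.341), and *srsf1.S* at 234 and 103 against 30.9 and 50.9 CPM (-2.04, SE 0.70, edgeR FDR = 0.630). *hnrnpa1.L* was at 1147 and 538 against 221 and 334 CPM. Control 1 was the highest library in all 3 genes, and without it the list median was -0.081, whereas it was -0.90 without control 2.

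Genes that write, read or erase histone H3 lysine 9 methylation, other than the *kdm3* family, had 0 of 34 copies called. Both *kdm3a* MO libraries lay below both controls in 14 (41.2%, against 16.1% of all genes tested) and above them in 1 (2.94%, against 15.9%). The median was -0.47 (-0.20 without kdm3a MO 3 and -0.23 without control 1). *suv39h2.S*, a methyltransferase, was at 7.45 and 3.25 CPM in the controls and 0.506 and 1.61 CPM in the *kdm3a* MO libraries (-2.34, SE 1.11), and *cbx5.S*, which encodes heterochromatin protein HP1 alpha, at 61.0 and 42.3 against 9.16 and 34.1 CPM (-1.26, SE 0.74). The edgeR FDR was 1 for both.

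**Figure D4:**
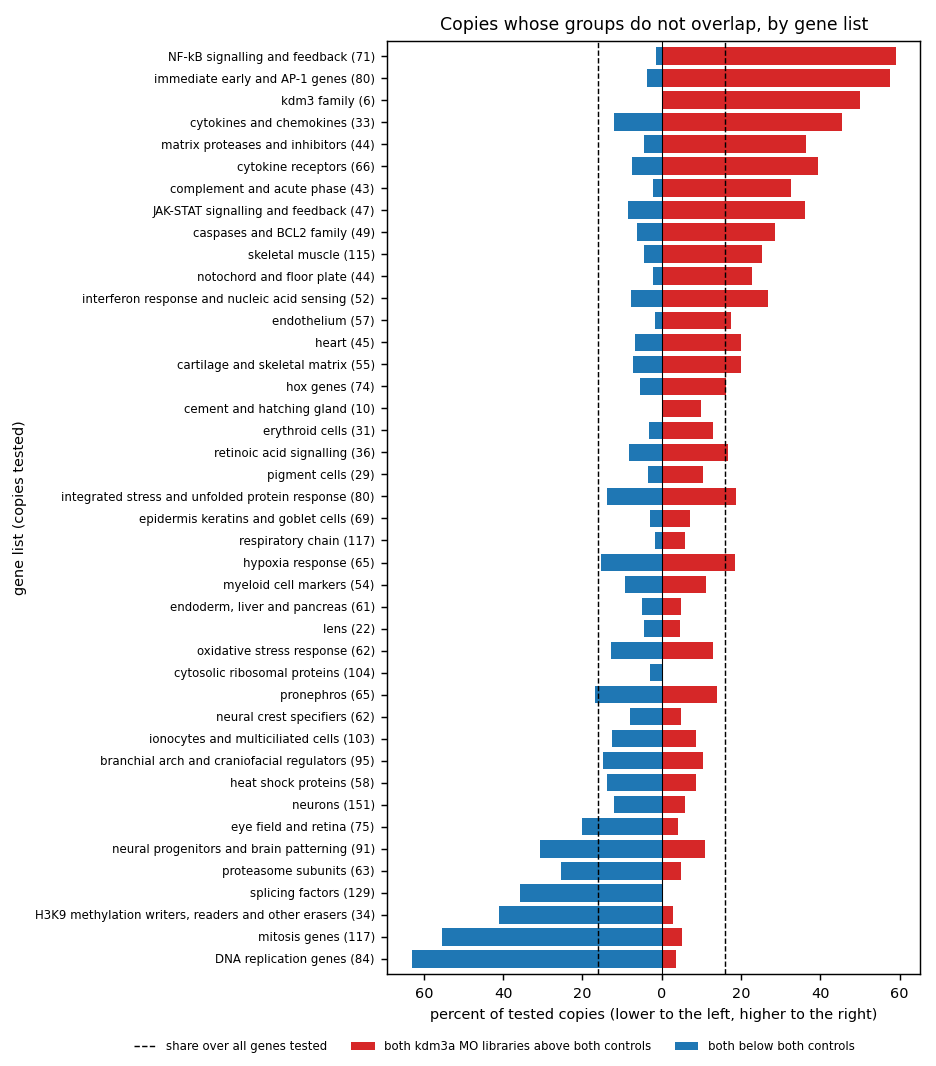
Percent of the tested copies of 42 gene lists in which both *kdm3a* MO libraries lay above (red, to the right) or below (blue, to the left) both controls, with the number of copies tested in brackets and the shares over all genes tested (15.9% and 16.1%) as dashed lines. NF-kB (59.2%) and immediate early genes (57.5%) have the longest bars to the right, and DNA replication (63.1%) and mitosis genes (55.6%) the longest to the left.

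Neural crest and craniofacial genes, the subject of the series' title, were not called. Of 62 copies of neural crest specifiers, 3 (4.84%, against 15.9% of all genes tested) were above and 5 (8.06%, against 16.1%) below both controls in both *kdm3a* MO libraries. The median was -0.08, which was 0.22 without control 1 and -0.22 without control 2. *sox10.S*, a crest transcription factor, was at 61.9 and 19.2 CPM in the controls and 16.05 and 19.3 CPM in the *kdm3a* MO libraries (-1.20, SE 0.73, unadjusted p = 0.111 by edgeR), and control 1 alone was high. *sox9.L*, needed for cartilage, was at 19.7 and 39.9 against 48.3 and 38.2 CPM (0.54, SE 0.67). *ets1.S*, a crest and vascular factor, had the lowest p of the list, at 53.4 and 23.1 against 12.15 and 15.4 CPM (-1.47, SE 0.70, unadjusted p = 0.0429, edgeR FDR = 1). Among 95 copies of branchial arch and craniofacial regulators, 10 (10.5%) were above and 14 (14.7%) below, with a median of -0.09 (0.16 without control 2). *tbx1.S*, a pharyngeal arch factor, was at 32.0 and 21.5 against 10.3 and 13.8 CPM (-1.15, SE 0.71). Cartilage and skeletal matrix genes had 11 of 55 copies (20%) above and 4 (7.27%) below, with a median of 0.21 (0.89 without control 2). *sp7.L*, an osteoblast factor, was at 63.6 and 12.35 against 10.4 and 11.9 CPM with control 1 alone high.

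No copy on the eye and neural lists was called either. *dscaml1.L*, the neuronal cell adhesion molecule that was called higher, stands outside these lists. Of 75 tested copies of eye field and retina genes, 15 (20%, against 16.1% of all genes tested) were below both controls in both *kdm3a* MO libraries. Above them were 3 (4%, against 15.9%). The list median was -0.32, which was 0.32 without control 2 and -0.82 without kdm3a MO 3. *vsx1.L* and *vsx1.S*, homeobox genes of retinal bipolar cells, were at 19.1 and 12.7 against 8.40 and 3.51 CPM (-1.41, SE 0.84) and at 17.6 and 13.2 against 8.30 and 5.13 CPM (-1.19, SE 0.81). *vax2.L*, a factor of the ventral eye, was at 17.7 and 6.96 against 3.64 and 4.10 CPM (-1.67, SE 0.90). *rpe65.S*, the retinoid isomerase of the pigment epithelium, was at 143 and 17.3 against 10.3 and 13.7 CPM (-2.74, SE 0.84, unadjusted p = 0.00281, edgeR FDR = 0.394), again with control 1 far above the rest. *otx2.L*, a forebrain and eye factor, was at 61.9 and 41.0 against 42.0 and 26.5 CPM (-0.59, SE 0.65), with overlapping groups.

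Of 91 copies of neural progenitor and brain patterning genes, 28 (30.8%) were below and 10 above both controls, with a median of -0.34 (-0.01 without control 1). Of 151 tested neuronal copies 18 (11.9%, against 16.1%) were below and 9 (5.96%, against 15.9%) above. Their median was 0.12, which ran from -0.47 without control 1 to 1.52 without control 2. The zinc finger gene *myt1.S*, which promotes neuronal differentiation, was at 36.3 and 59.7 against 5.72 and 18.23 CPM (-2.005, SE 0.73, edgeR FDR = 0.833). *nrxn3.S*, a synaptic adhesion gene, had 20 and 26 counts in the controls and 0 in either *kdm3a* MO library, at least 8.77-fold lower when 6 counts over the group are taken as the floor (unadjusted p = 0.000982, edgeR FDR = 0.211). The 34 tested copies of 18 of the crest, eye and reference genes that the paper examined in *kdm5c* morphants had log2 fold changes from -1.87 to 1.55 with a median of -0.30, and none was called. In 27 of the 34 the groups overlapped, in 6 both *kdm3a* MO libraries were below both controls and in 1 above. Over all genes tested, both lay below in 16.1% and above in 15.9%. The lowest unadjusted p was 0.0780 (*vax2.L*, edgeR's exact test).

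**Figure D5:**
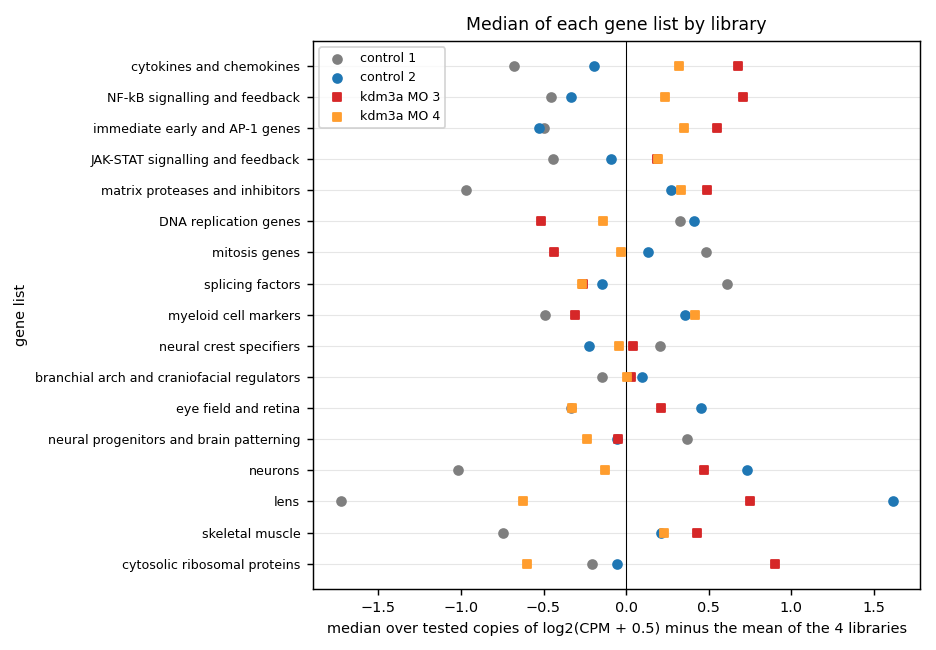
Median over the tested copies of 17 gene lists of log2(CPM + 0.5) minus the gene's mean over the 4 libraries, for control 1 and control 2 (circles) and kdm3a MO 3 and kdm3a MO 4 (squares). The DNA replication genes (0.33 and 0.41 against -0.52 and -0.14) separate the groups, while for lens genes control 1 (-1.73) and control 2 (1.61) are the extremes.

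Myeloid cells, which include the neutrophils and macrophages, were measured through their markers, whose part in the results above was not tested. Of 54 tested copies of myeloid markers, 6 (11.1%, against 15.9% of all genes tested) were above and 5 (9.26%, against 16.1%) below both controls in both *kdm3a* MO libraries. Of these 54 copies 0 were called, and the median was -0.21, which ran from -0.78 without kdm3a MO 4 to 0.53 without control 2. Their summed level was 741 and 1046 CPM in the controls and 433 and 858 CPM in the *kdm3a* MO libraries. None of the 62 marker copies was at 0 in all 4 libraries. *mpo.S*, myeloperoxidase, had the highest level of the list at 228 and 84.6 CPM in the controls and 9.21 and 120 CPM in the *kdm3a* MO libraries. *lyn.S*, a tyrosine kinase of blood cells, had the lowest p at 2.89 and 6.31 against 32.8 and 16.7 CPM (2.42, SE 0.80, edgeR FDR = 0.566).

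Further lists of inflammation and stress had no called member. Interferon response genes had 14 of 52 tested copies (26.9%, against 15.9% of all genes tested) above and 4 (7.69%, against 16.1%) below both controls. Their median was 0.32 (1.25 without control 2). *irf1.L*, an interferon regulatory factor, was at 3.11 and 16.1 against 162 and 58.9 CPM (3.52, SE 0.82, edgeR FDR = 0.0516). Complement and acute phase genes had 14 of 43 (32.6%) above and 1 (2.33%) below, with a median of 0.63 (0.21 without kdm3a MO 3 and 2.40 without control 2), but control 1 was far below control 2 on this list (medians by library of -1.65 and 0.38). For the integrated stress and unfolded protein response the shares were 18.8% and 13.8% of 80 copies and the median was 0.11, and *ppp1r15a.S*, which restores translation after stress, was at 1.74 and 3.51 against 19.0 and 26.6 CPM (3.11, SE 0.82, edgeR FDR = 0.134). Medians of the heat shock, oxidative stress and hypoxia lists were -0.03, 0.13 and -0.05, the latter 2 changing sign when single libraries were left out, with shares above both controls of 8.62%, 12.9% and 18.5%.

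The remaining tissue lists had no called member. Skeletal muscle had 29 of 115 tested copies (25.2%, against 15.9% of all genes tested) above and 5 (4.35%, against 16.1%) below both controls. Its median was 0.41 (1.15 without control 2). Heart genes had 9 of 45 (20%) above and 3 (6.67%) below, with a median of 0.53 (1.42 without control 2). The shares above both controls were 22.7% of 44 notochord and floor plate copies, 17.5% of 57 endothelial copies, 16.7% of 36 retinoic acid signalling copies and 16.2% of 74 *hox* copies, all near the 15.9% of all genes tested or somewhat above it. They were lower, from 4.55% to 13.8%, for lens, endoderm, epidermis, ionocyte and multiciliated cell, cement and hatching gland, pigment cell, erythroid and pronephros lists, whose shares below both controls ran from 0% to 16.9%. Proteasome subunits had 16 of 63 copies (25.4%, against 16.1% of all genes tested) below and 3 (4.76%, against 15.9%) above. Their median was -0.08 (0.11 without control 2). For cytosolic ribosomal proteins the median was 0.46, yet 0 of 104 copies were above both controls in both *kdm3a* MO libraries and 3 below, since kdm3a MO 3 (0.90) and kdm3a MO 4 (-0.60) lay on opposite sides of the controls, and without kdm3a MO 3 it was -0.47. Respiratory chain genes had a median of 0.56, with 7 of 117 copies above (5.98%) and 2 below (1.71%), both under the shares of all genes tested.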

How the data were processed

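Per the study's methods, the authors built poly(A) libraries, mapped reads to *X. laevis* cDNA sequences with BWA and deposited unnormalised counts per gene model. The submitters' processing notes give BWA 0.7.10, and the study's methods name another version. The handling of pairs and multiply matching reads is not given in the sources used here. Of counts from 1 to 20, 89.7% to 95.0% were even per library, the pattern of pairs counted once per read, so floors and counting intervals were set on read pairs. Of 35773 models 26547 carry a symbol. Groups and replicate numbers came from sample titles, and control 2 is numbered 3 in its description.

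Counts were filtered by filterByExpr, scaled by TMM and compared with edgeR 4.0.16 in R 4.3.3 (exact test, common and tagwise dispersion, Benjamini-Hochberg over all genes tested), with the study's limits of FDR 0.01 and 4-fold. The biological coefficient of variation was 0.622. Log2 values per library used a pseudocount of 0.5 CPM. With 2 libraries in each group the smallest two-sided p of a permutation test is 0.333, so none was used. The 43 gene lists, matched by symbol, were described by counts and medians without a test, and 1 list and some genes are not reported here. Members and lists were chosen with earlier results of these data known. Copies with low counts can pass the filter through a single group, which can favour groups that do not overlap. Named were the *kdm3* family, models past both limits, in each list the 4 copies with the lowest p and the one with the highest level, other copies of these, and genes of the paper. As many of these as the account needs are given. A further 10 genes (*lif.L*, *lif.S*, *fos.L*, *fos.S*, *egr1.S*, *fas.L*, *plk2.S*, *mdm2.L*, *nos1.L*, *angpt4.S*) were named after their values were seen. Alternatives were other scalings, filters, tests (DESeq2 1.42.0), dispersions, depths and limits, and each library left out. Of the RefSeq annotation only gene order was used, and no sequences.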

Additional observations from a re-analysis of the deposited data

Results flagged for a closer look

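*myh15.L* differed between the MOs by a direct test. Its level was 45.1 and 45.03 CPM in the *kdm3a* MO libraries. In the *kdm5c* MO libraries it was 0.607 and 0 CPM with the scaling of all 6 libraries. The log2 fold change was 7.18 (edgeR FDR = 6.66e-09), with both *kdm3a* MO libraries above both *kdm5c* MO libraries. The label date of these groups also differs and cannot be told apart from the MO. Groups of 2 libraries are too small to look for single outlying samples.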

How the results depend on the processing

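The count of genes past both limits (47, with 43 higher and 4 lower) was 22 (20 and 2) with at least 10 counts in every library, 0 (0 and 0) with the quasi-likelihood test (715 at an unadjusted p below 0.05), 83 (73 and 10) with DESeq2 and 15 (15 and 0) with all 6 libraries in the fit. The number lower was 2 with no filter, 1 with trended dispersions (an alternative chosen after seeing the data, 33 genes in all) and 8 at FDR 0.05 and 2-fold. Leaving out each library in turn gave 5 to 355 genes, 4 to 246 higher and 1 to 109 lower, where the lone library of a group is assumed to vary like the other group. Other scalings, thinning, halved counts and summed copies gave 39 to 48 genes. Wherever tested, the 47 kept their direction. In each of them both *kdm3a* MO libraries lay more than 2-fold beyond both controls. The direction could therefore hardly change, and that it held is no check of the calls.

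Under settings other than left-out libraries, medians of the lists reported here moved by more than the spread between replicates for retinoic acid signalling (-0.23 with at least 10 counts, -0.000727 with summed copies), cytokines (1.003 with no filter, 1.57 with halved counts) and immediate early genes (0.64 with summed copies). Leaving out control 2 moved the median over all genes tested from -0.02 to 0.14 and raised the medians of many tissue lists, several of which changed sign. Leaving out each library, the medians ran from 0.56 to 1.78 for cytokines, 0.51 to 1.24 for NF-kB, 0.73 to 1.03 for immediate early genes, -0.90 to -0.49 for DNA replication, -0.90 to -0.35 for mitosis and -0.90 to -0.081 for splicing factors. With copies summed, the value is that of the L and S copies together. It was 0.18 for *kdm3b* and 3.02 for *dscaml1*, opposite in sign to *kdm3b.S* and *dscaml1.S* alone. The sign reversed for *clca3p-like.L* (-0.52) without control 2. It also reversed for *dscaml1.S* (-1.70 to 0.59 over the libraries left out) without control 2 and without kdm3a MO 4 (0.01). The cause of the reversals with libraries left out was not tested. No paired analysis was possible because the groups share no replicate numbers (1 and 2 against 3 and 4). With 2 libraries per group and a biological coefficient of variation of 0.622, single genes with modest differences were not detectable at this depth of replication.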
